A study of Mus musculus with 8 samples.

Results

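The core cardiac transcription factors described here are 10 DNA-binding proteins that turn on heart muscle genes. They are the zinc finger factors Gata4 and Gata6, the T-box factors Tbx5 and Tbx20, the homeobox factor Nkx2-5, the basic helix-loop-helix factor Hand2, and the MADS-box factors Mef2a, Mef2c, Mef2d and Srf. They were taken from the deposited gene table by their symbols, and all 10 were found among its 23045 genes. No measured value entered that rule, although the factors were chosen with earlier results of these data known.

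The study asked what loss of Mettl3 does to RNA in the heart. Mettl3 is the catalytic subunit of the enzyme complex that writes N6-methyladenosine (m6A), the most common internal mark of messenger RNA. Total RNA of mouse hearts was sequenced in 8 stranded libraries. The 4 WT libraries came from Mettl3lox/lox hearts, in which Mettl3 is flanked by lox sites but no Cre transgene is carried. The 4 Mettl3 KO libraries came from Mettl3lox/lox:alphaMHC-MerCreMerpos hearts, in which tamoxifen activates a Cre recombinase. Both genotypes therefore carry the lox alleles, and per the study's methods both received tamoxifen, 100 µg per g body weight on each of 7 days, at an age of 10 to 16 weeks. The alphaMHC promoter drives the transgene in cardiomyocytes only, so fibroblasts, endothelial cells and the other cells of the heart keep Mettl3. Deletion of Mettl3 and possession of the transgene go together in all 4 Mettl3 KO libraries, and their effects cannot be told apart.

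As background, these factors form a network that first specifies heart muscle in the embryo and then maintains it in the adult. They bind side by side at the enhancers of contractile, ion channel and natriuretic peptide genes, often bind one another, and several control each other's genes. The dose of GATA4, TBX5 and NKX2-5 is critical, since loss of a single copy causes congenital heart defects in humans, and MEF2 and SRF are also targets of stress signalling through class II histone deacetylases and actin.

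The values are normalised read counts: reads assigned to a gene, divided by a library factor and rounded to whole numbers by the authors. Library totals were 2839589 to 2916986 in these units, and the spacing of the low values put the underlying reads at 2631904 to 3061260 per library. Mettl3 itself read 116 ± 12.8 in WT and 72.2 ± 4.65 in Mettl3 KO (mean ± SD, n = 4 each, as for all values below), with no overlap between the groups. Esr1, the oestrogen receptor gene from which the MerCreMer ligand domains derive, rose from 13 to 20 in WT to between 693 and 851 in Mettl3 KO, so both checks went with the labels. Among all 20313 genes tested, 1607 or 7.91% passed an adjusted p of 0.05 (limma on log2(value + 1), Benjamini-Hochberg), 958 higher (4.72%) and 649 lower (3.19%) in Mettl3 KO. The marker sums of other cell types also differed. The summed 7 atrial markers ranged from 127 to 305 in WT and from 335 to 1389 in Mettl3 KO, and Bmp10, the most atrium-restricted of them, was at 0 in all WT libraries and in Mettl3 KO 1 but at 158 to 358 in Mettl3 KO 2, 3 and 4. The summed 8 fibroblast markers were higher in Mettl3 KO (5523 to 6176 against 4465 to 4974), and 7 of the 8 rose. The summed 8 endothelial markers were lower (4466 to 4867 against 5172 to 5361), and 4 of the 8 fell. The summed 8 smooth muscle and pericyte markers were lower as well (4381 to 4680 against 4719 to 5136). Of the 8, 1 fell, the channel gene Abcc9 (-0.20, limma adjusted p = 0.00152), and no other was called. Abcc9 was also the largest part of that sum, at 2180.2 ± 85.9 in WT and 1902.0 ± 63.2 in Mettl3 KO. The smooth muscle genes Tagln, Myh11 and Acta2 had log2 fold changes of 0.41, 0.17 and 0.14 that did not pass. Of 4 epicardial markers 1 rose, and the summed 6 macrophage markers overlapped (1087 to 1298 against 1048 to 1273). The summed 9 cardiomyocyte markers overlapped (89463 to 100057 against 92167 to 98752), although most of that sum is Ttn, and 1 of the 9, Ryr2, fell. All 9 were abundant, as the label heart requires. In bulk heart RNA, more cells of a type and more RNA per cell of that type cannot be told apart.

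Of the 10 core factors, 2 rose in Mettl3 KO hearts and none fell. Tbx5, which patterns the ventricles and the conduction system, stood at 131% of its WT mean, and Hand2, a factor of the right ventricle and outflow tract, at 125%. Both calls were lost when limma was fitted without its mean-variance trend (adjusted p = 0.0903 for each), a fit that called 321 genes in all. Those 2 of 10 compare with 4.72% of all genes tested that were called higher. That share includes many low genes, in which changes are harder to call. By level the 10 ranked from percentile 62.2 (Nkx2-5) to 99.4 (Mef2a) of the tested genes. The value ranges of 3 factors (Tbx5, Hand2 and Srf) lay wholly above WT, against 6.46% of all genes, and the range of no factor lay wholly below, against 5.04% (11.5% in either direction). The median log2 fold change of the 10 was 0.08, beside -0.01 over all genes tested. The 10 values added up to 5202 to 5414 in WT and 5304 to 5507 in Mettl3 KO, which overlap. Coefficients of variation were 1.98 to 9.91% within WT, and within Mettl3 KO they ran from 2.93% for Tbx20 to their highest in Gata6.

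**Figure D1:**
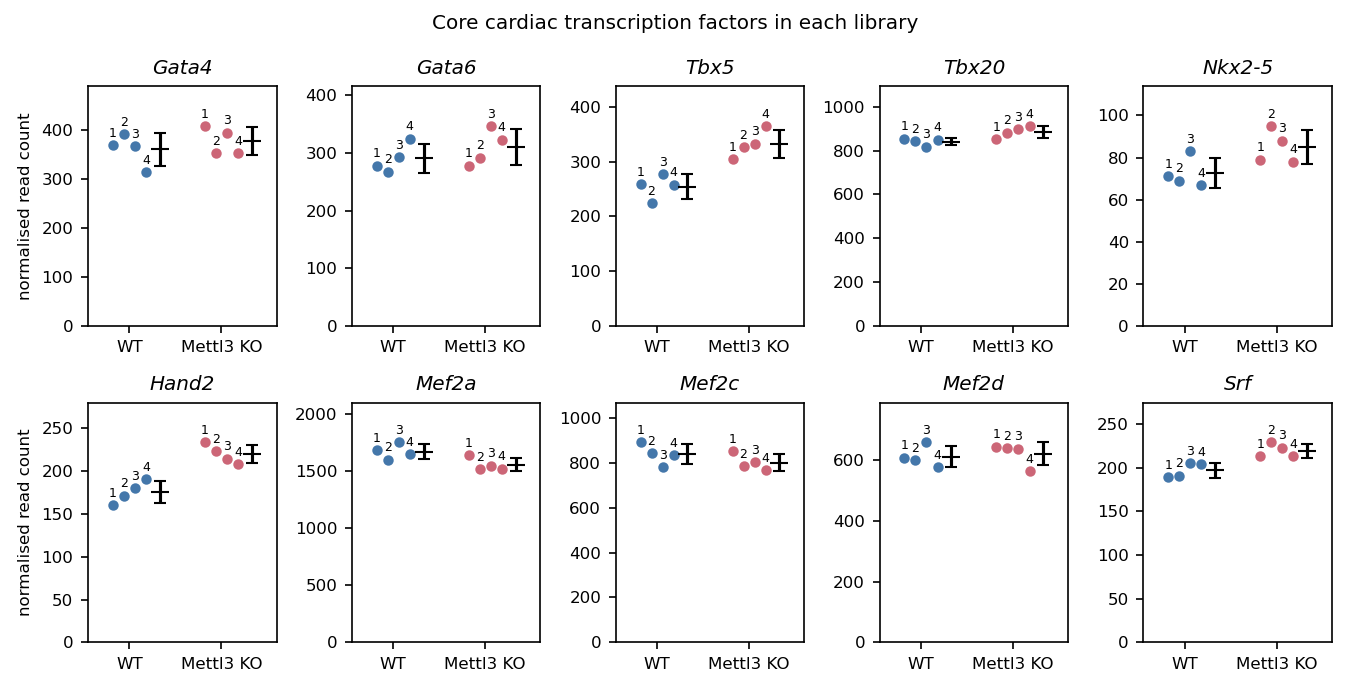
Normalised read count (vertical axes, linear from 0) of each of the 10 factors in WT (blue) and Mettl3 KO (red), 1 point per library with its replicate number, and the mean with SD of the 4 libraries beside the points. The Mettl3 KO points of Tbx5, Hand2 and Srf all sit above every WT point, while those of the other 7 factors overlap WT.

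Tbx5 (chr5:119970733-120023284, plus strand, mm39) read 259, 224, 277 and 258 in WT 1 to 4 and 305, 326, 333 and 365 in Mettl3 KO 1 to 4. Every Mettl3 KO library was above every WT library. The means were 254 ± 22.1 and 332 ± 24.9, a log2 fold change of 0.38 (SE 0.071, 95% interval 0.24 to 0.53) with a limma adjusted p of 0.00116. Tbx20 (chr9:24629434-24685599, minus strand), the T-box factor that represses Tbx2 in the chambers and is needed for adult heart function, varied least between libraries of a group. It read 854, 843, 817 and 850 in WT against 851, 882, 896 and 912 in Mettl3 KO. These ranges overlapped, the means were 841 ± 16.6 and 885 ± 25.9, and the log2 fold change of 0.07 (95% interval -0.01 to 0.16) had a limma adjusted p of 0.344. The ratio of Tbx5 to Tbx20 was 0.304 ± 0.03 in WT (0.267 to 0.34) and 0.376 ± 0.018 in Mettl3 KO (0.359 to 0.401). The ratios did not overlap and differed by 0.31 on the log2 scale. A two-sided exact permutation test gave p = 0.0286, the smallest that 4 against 4 libraries allow, and 0.143 after adjustment over the 5 ratios between related factors that were compared.

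Tbx5 is a gene of the atria as well as of the ventricles, and its level was read beside the atrial marker sum. Within Mettl3 KO the order of Tbx5 (305, 326, 333, 365) was that of the atrial sum (335, 855, 898, 1389). Within WT the library with the lowest atrial sum, WT 3 at 127, held the highest Tbx5 value, 277. In Mettl3 KO 1, whose atrial sum of 335 lay close to the highest WT value of 305, Tbx5 was still above all WT libraries, by 0.26 on the log2 scale against the WT mean. With the atrial marker level as a covariate the log2 fold change of Tbx5 was 0.34 with a limma adjusted p of 0.0676. That level is the mean log2(value + 1) of the atrial markers, and 58.5% of its variance lies between the genotypes. A covariate that differs by genotype widens the error of the genotype term, so a call can end at a similar fold. With the fibroblast marker level, 86.1% of whose variance lies between the genotypes, the Tbx5 value was 0.12 with a limma adjusted p of 0.941. Only 15 genes in all were called in the latter fit. The part of either cell type in the Tbx5 difference was not tested further.

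**Figure D2:**
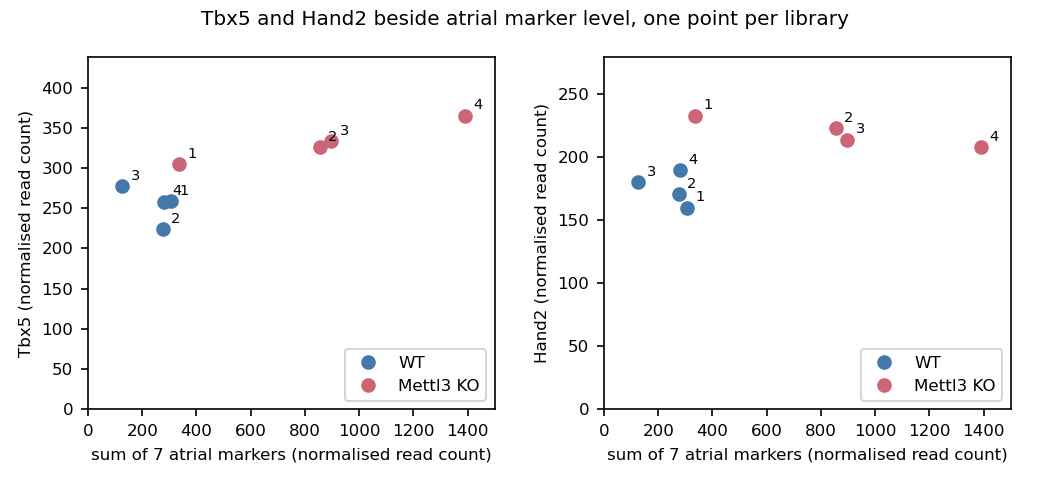
Normalised read count of Tbx5 (left) and Hand2 (right) against the sum of 7 atrial markers, 1 point per library with its replicate number, on linear axes from 0. Tbx5 and the atrial sum run in the same order within Mettl3 KO and Hand2 runs in the opposite order, while Mettl3 KO 1 lies near the WT atrial sums and above the WT values of both genes.

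Hand2 (chr8:57774018-57777668, plus strand) read 160, 171, 180 and 190 in WT against 233, 223, 214 and 208 in Mettl3 KO. The lowest Mettl3 KO library exceeded the highest WT library. The means were 175 ± 12.8 and 220 ± 10.9, a log2 fold change of 0.32 (SE 0.073, 95% interval 0.17 to 0.48) with a limma adjusted p of 0.00645. Within Mettl3 KO the order of Hand2 was opposite to that of the atrial sum. Between the groups, Hand2 was higher in every Mettl3 KO library than in every WT library. The atrial sum was too, but in Mettl3 KO 1 only narrowly (335 against at most 305 in WT). By the mean log2 level of the atrial markers, Mettl3 KO 1 at 4.24 lay within the WT range of 2.37 to 4.46. Mettl3 KO 1, with the lowest atrial sum of its group, held the highest Hand2 value, 233, and was 0.41 above the WT mean on the log2 scale. With the atrial marker level as a covariate the log2 fold change was 0.43 with a limma adjusted p of 0.0158. With the fibroblast marker level as a covariate it was 0.46 with a limma adjusted p of 0.599. Hand2 is also expressed in fibroblasts of the heart, and neither their part nor that of atrial cells was tested further.

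Of the 10 factors, 7 matched promoter sequences of RefSeq (GRCm38.p6, 9 entries, each 250 bases before to 50 after a start site). They were searched on both strands for letters that cardiac factors are known to bind: GATA (the letters GATA after A or T and before A or G), T-box (AGGTGTNA), NKX2-5 (TNAAGTG), HAND E-box (CATCTG), TEAD (CATTCCA), the TATA box (TATAAA), the MEF2 site and the CArG box, which SRF binds. The 250 bases before the start are shown for Hand2, the factor that rose and had an entry, and for Srf, whose window holds the letters its own protein binds. Capitals mark the matches, and none of them overlap.
Hand2 promoter (chr8:57320733-57320982, GRCm38.p6, plus strand): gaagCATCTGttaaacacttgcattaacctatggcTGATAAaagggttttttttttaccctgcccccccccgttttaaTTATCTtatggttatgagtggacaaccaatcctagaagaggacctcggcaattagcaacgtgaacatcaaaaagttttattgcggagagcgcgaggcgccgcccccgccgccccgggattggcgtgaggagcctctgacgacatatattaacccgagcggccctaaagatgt
Srf promoter (chr17:46556163-46556412, GRCm38.p6, minus strand): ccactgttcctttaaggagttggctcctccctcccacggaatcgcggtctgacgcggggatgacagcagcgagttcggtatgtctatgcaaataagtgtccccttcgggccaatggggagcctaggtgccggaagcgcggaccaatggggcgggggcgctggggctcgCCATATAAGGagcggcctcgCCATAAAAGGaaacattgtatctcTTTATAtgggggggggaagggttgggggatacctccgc
The Hand2 window holds a HAND E-box and 2 GATA matches, of which TGATAA reads on the plus strand while the other, shown as TTATCT, reads on the minus strand. HAND E-box letters occur in 17.2% and GATA letters in 29.8% of all 32851 promoter windows of the same length, and in 12.7% and 20% of the 15773 windows of genes tested here. The Srf window holds 2 CArG boxes, 82 to 73 and 62 to 53 bases before the start, and a TATA box on the other strand. CArG boxes occur in 1.63% and TATA letters in 13.6% of all windows (1.42% and 8.01% for tested genes). Mef2a holds a MEF2 site (CTAAAAATAG) across its start, a match found in 3.19% of all windows and 2.08% of those of tested genes. Entries of Mef2c held a HAND E-box and 2 TATA matches, and Tbx20, Nkx2-5 and Mef2d held none of the letters searched. Such matches describe letters and do not show that a factor bound.

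Hand2 shares its locus with noncoding genes, which were counted by strand. Hand2os1 (chr8:57734152-57777268, minus strand), a long noncoding RNA gene that overlaps Hand2 in antisense and is known as a regulator of that locus, read 589, 623, 655 and 599 in WT against 673, 686, 619 and 633 in Mettl3 KO. The groups overlapped, the means were 616 ± 29.4 and 653 ± 31.9, and the log2 fold change was 0.08 (95% interval -0.02 to 0.19, limma adjusted p = 0.391). Hdnr, a lncRNA gene 7483 bases from Hand2 on its own strand, read 74.8 ± 4.92 and 84.2 ± 11.2, a log2 fold change of 0.16 (95% interval -0.07 to 0.40, limma adjusted p = 0.474). The ratio of Hand2 to Hand2os1 was 0.272 to 0.317 in WT and 0.325 to 0.346 in Mettl3 KO. This ratio was chosen after the values were seen and has no test. Of the exon bases of Hand2os1, 3.59% are shared with Hand2 exons on the other strand.

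Neither GATA factor passed the test. Gata4 (chr14:63436371-63509141, minus strand), which activates natriuretic peptide and contractile genes and mediates hypertrophic signals, read 370, 392, 368 and 314 in WT against 409, 353, 395 and 353 in Mettl3 KO. The ranges overlapped, with means of 361 ± 33.2 and 378 ± 28.9 and a log2 fold change of 0.07 (95% interval -0.08 to 0.21, limma adjusted p = 0.67). Gata6 (chr18:11052064-11085635, plus strand), its close relative with partly redundant functions, read 278, 268, 293 and 325 in WT against 278, 292, 347 and 323 in Mettl3 KO. The lowest Mettl3 KO library sat inside the WT range. The means were 291 ± 24.9 and 310 ± 31.0, a log2 fold change of 0.09 (95% interval -0.06 to 0.24, limma adjusted p = 0.568). The Gata4 to Gata6 ratio was 1.25 ± 0.21 in WT and 1.23 ± 0.17 in Mettl3 KO, a log2 difference of -0.02 (exact permutation p = 0.914, adjusted p = 1). The antisense gene Gata6os, which overlaps the start of Gata6, read 112 ± 10.4 and 110 ± 16.8, a log2 fold change of -0.02 (95% interval -0.25 to 0.20, limma adjusted p = 0.941). The intervals of Gata4 and Gata6 leave room for rises of up to 0.21 and 0.24 on the log2 scale.

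Nkx2-5 (chr17:27057638-27063983, minus strand), the homeobox factor at the centre of the network and a partner of GATA4 and TBX5, had the lowest level per kb of the 10 in WT. It read 71, 69, 83 and 67 in WT against 79, 95, 88 and 78 in Mettl3 KO. The WT library 3 lay among the Mettl3 KO libraries, and the other WT libraries lay below all of them. The means were 72.5 ± 7.19 and 85.0 ± 8.04, a log2 fold change of 0.23 (SE 0.110, 95% interval -0.00 to 0.46) with a limma adjusted p of 0.249. Its standard error was the widest of the 10, and a change of this size could not be told from the spread at this depth.

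The Mef2 genes encode the myocyte enhancer factors, which bind as dimers to AT-rich sites of contractile and metabolic genes and are held in check by class II histone deacetylases. Mef2a (chr7:66880911-67022606, minus strand), abundant in the adult heart, read 1681, 1601, 1751 and 1651 in WT against 1642, 1518, 1548 and 1521 in Mettl3 KO. Mettl3 KO 1 lay within the WT range and the other 3 Mettl3 KO libraries lay below it. The means were 1671.0 ± 62.7 and 1557.2 ± 58.1, and the log2 fold change of -0.10 (SE 0.039, 95% interval -0.18 to -0.02) had a limma adjusted p of 0.126. With libraries rescaled to equal totals the value was -0.11 with a limma adjusted p of 0.0495, and without Mettl3 KO 1 it was -0.13 with a limma adjusted p of 0.0414, so the call hung on the scaling and on that library. With the atrial marker level as a covariate the Mef2a value was -0.01 (limma adjusted p = 0.973). The part of the atrial markers in it was not tested further. Mef2c (chr13:83652153-83815199, plus strand), which is required for heart looping and the second heart field, read 890, 842, 781 and 834 in WT against 852, 784, 801 and 766 in Mettl3 KO. The groups overlapped, with means of 837 ± 44.6 and 801 ± 37.0 and a log2 fold change of -0.06 (95% interval -0.16 to 0.04, limma adjusted p = 0.525). Mef2d (chr3:88049679-88079393, plus strand), a mediator of stress-dependent remodelling, read 609, 601, 659 and 578 in WT against 645, 640, 639 and 565 in Mettl3 KO. Mettl3 KO 4 stood below the other 3 of its group and below all of WT. The means were 612 ± 34.1 and 622 ± 38.3, a log2 fold change of 0.02 (95% interval -0.09 to 0.14, limma adjusted p = 0.87).

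The makeup of the Mef2 family moved little. Per kb of exon, Mef2a made up 42.3 ± 0.68% of the 3 genes in WT and 40.7 ± 1% in Mettl3 KO, Mef2c 19.8 ± 1.3% and 19.5 ± 0.3%, and Mef2d 37.9 ± 1.2% and 39.8 ± 1.3%. The ratio of Mef2a to the other 2 differed by -0.08 on the log2 scale and that of Mef2d by 0.11 (exact permutation p = 0.114 for each, 0.19 adjusted over the 5 ratios). That of Mef2c differed by 0.00 (exact permutation p = 1).

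Srf (chr17:46859255-46867101, minus strand), the serum response factor, links actin dynamics to cytoskeletal and sarcomere genes together with its coactivator myocardin. It read 189, 191, 205 and 204 in WT against 213, 229, 223 and 213 in Mettl3 KO. The groups did not overlap, but the gap between them was narrow. The means were 197 ± 8.42 and 220 ± 7.90, a log2 fold change of 0.15 (SE 0.067, 95% interval 0.01 to 0.29) that did not pass the test over all genes (limma adjusted p = 0.185). Its nearest gene, Cul9, 1940 bases away, read 266 ± 15.6 and 242 ± 7.23, a log2 fold change of -0.14 (95% interval -0.27 to -0.01, limma adjusted p = 0.217).

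Within 10 kb of the factors lay 17 tested genes, next to 9 of the 10 (none next to Mef2c), and 13 of the 17 are noncoding or unclassified. Of the 17, 2 were called, both overlapping the span of Mef2a, beside 7.91% of all genes tested, and 8 of the 17 had means below 20 in both groups. Gm44667 (chr7:66918654-66921990, minus strand), an Ensembl TEC entry (a transcript that awaits experimental evidence), lies on the Mef2a strand and shares no exon base with it. It read 268, 247, 284 and 262 in WT against 225, 216, 200 and 237 in Mettl3 KO. All 4 Mettl3 KO values were below WT, and the means of 265 ± 15.3 and 220 ± 15.6 gave a log2 fold change of -0.27 (SE 0.069 and limma adjusted p = 0.0157). The call was lost without WT 3, Mettl3 KO 2 or Mettl3 KO 3 (limma adjusted p = 0.0566, 0.0513 and 0.0777). With the atrial marker level as a covariate it was lost too, at -0.22 (limma adjusted p = 0.278). Gm44668 (chr7:67017464-67020728, minus strand), another such entry near the Mef2a start, read 80, 68, 63 and 68 in WT against 55, 56, 56 and 44 in Mettl3 KO. These groups did not overlap either, at means of 69.8 ± 7.23 and 52.8 ± 5.85, but the log2 fold change of -0.40 missed the threshold (SE 0.126 and limma adjusted p = 0.0552). It passed narrowly with libraries scaled to equal upper quartiles (-0.42) or genes filtered at a mean of 10 (-0.40), with a limma adjusted p of 0.0457 in each. Lysmd4 (chr7:66872292-66957078, plus strand), a LysM-domain protein gene on the opposite strand with 5.9% of its exon bases shared with Mef2a, read 93, 100, 82 and 88 in WT against 165, 110, 111 and 124 in Mettl3 KO. Mettl3 KO 1 stood far above the rest. The means were 90.8 ± 7.63 and 128 ± 25.8, a log2 fold change of 0.47 (SE 0.115) with a limma adjusted p of 0.0124. Over Mef2a the exons of the gene itself thus read 93.2% of WT without passing the test, while the called entries on its own and on the opposite strand went down and up. Among the remaining neighbours with means of 20 or more, Gm43050, 632 bases from Tbx5 on the opposite strand, read 46.0 ± 5.29 and 48.5 ± 13.7 (log2 fold change 0.04, limma adjusted p = 0.931). Ptk7, near Srf, read 29.2 ± 8.54 and 34.8 ± 9.95 (log2 fold change 0.25, limma adjusted p = 0.591).

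**Figure D3:**
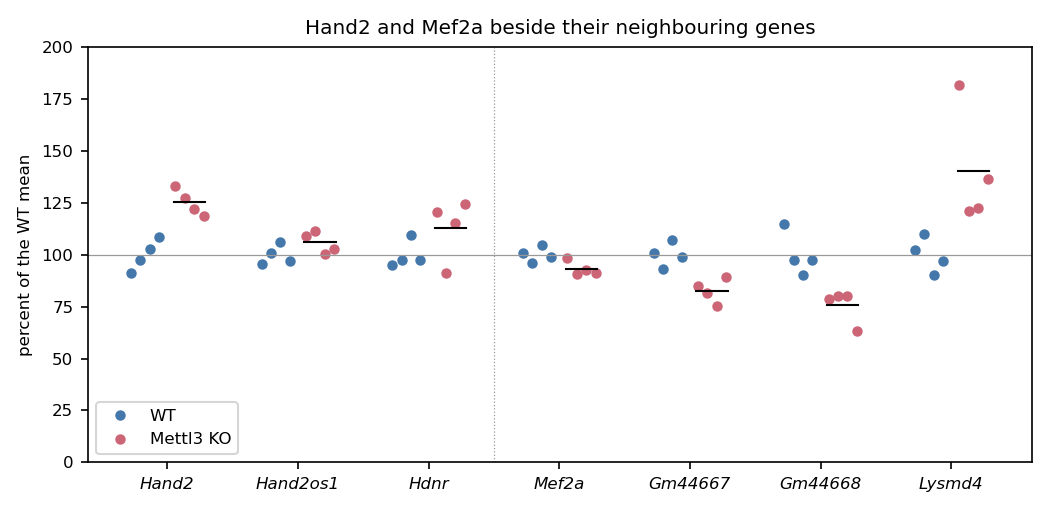
Hand2 and Mef2a with their neighbouring genes, each library as percent of that gene's WT mean (vertical axis, linear from 0), WT in blue and Mettl3 KO in red, with a bar at the Mettl3 KO mean. Hand2 stands above WT while Hand2os1 and Hdnr overlap WT, and around Mef2a the values of Gm44667 and Gm44668 lie below WT and those of Lysmd4 above it.

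To compare levels between genes, values were divided by exon length (1.72 kb for Nkx2-5 to 15.7 kb for Mef2c). In WT, Mef2a was highest at 114 ± 4.27 per kb, followed by Mef2d at 102 ± 5.70 and Gata4 at 92.5 ± 8.50. Hand2 (74.5 ± 5.44), Tbx20 (70.1 ± 1.39) and Srf (68.2 ± 2.91) came next and lay within their spreads of one another. Tbx5 (54.4 ± 4.73) and Mef2c (53.2 ± 2.84) formed a further pair, and Gata6 (44.7 ± 3.82) and Nkx2-5 (42.2 ± 4.18) were lowest and within their spreads of each other. All 10 were above the median of 13.4 per kb over the tested genes. In Mettl3 KO the level of Hand2 was 93.4 ± 4.64 per kb, within the spread of Gata4 at 96.7 ± 7.39. Tbx5 at 71.1 ± 5.32 per kb was within the spreads of Srf (75.9 ± 2.73) and Tbx20 (73.8 ± 2.16) there, where in WT it had been below both. Mef2a (106 ± 3.96) and Mef2d (104 ± 6.39) stayed on top, within their spreads of each other, and Mef2c (51.0 ± 2.36), Nkx2-5 (49.4 ± 4.68) and Gata6 (47.6 ± 4.77) were lowest.

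**Figure D4:**
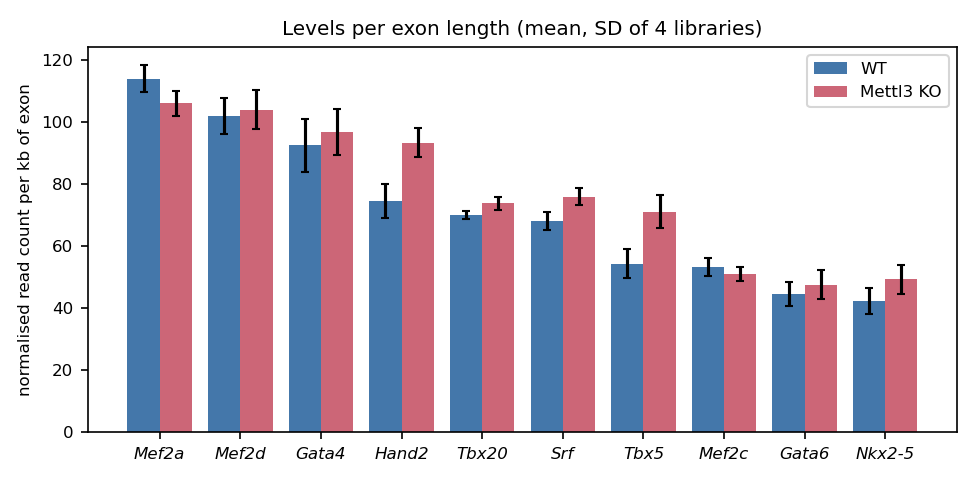
Normalised read count per kb of exon (vertical axis, linear from 0) for each factor, as mean bars with SD of 4 libraries, WT in blue and Mettl3 KO in red, ordered by the WT level. Mef2a leads at 114 in WT and Nkx2-5 is last at 42.2, and the gap between red and blue is widest for Hand2 and Tbx5.

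Relatives of the core factors from the same protein families were read next. Of 14 listed, 8 were tested, 2 (Mef2b and Hand1) were too low, and Gata1, Tbx4, Nkx2-3 and Nkx2-6 were not analysed here. One of the 8, Gata5, was called, beside 7.91% of all genes tested, at 1, 1, 1 and 3 in WT against 4, 4, 8 and 6 in Mettl3 KO (log2 fold change 1.41, SE 0.420, limma adjusted p = 0.0416). Its WT values were at or under 3 reads, and leaving out any library but WT 4 or Mettl3 KO 1 ended the call (limma adjusted p up to 0.147). Tbx3, the conduction system repressor, read 161 to 184 in WT and 135 to 175 in Mettl3 KO (log2 fold change -0.16, limma adjusted p = 0.313). Tbx2, its paralogue, read 51.8 ± 5.25 and 42.8 ± 4.03 (log2 fold change -0.27, limma adjusted p = 0.276). The median over the 8 was 0.01.

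Among 17 other cardiac transcription factors tested, 5 rose and 1 fell, beside 4.72% and 3.19% of all genes tested, with a median log2 fold change of 0.07. Irx5, the Iroquois factor that shapes repolarisation across the ventricular wall, went from 62, 80, 55 and 55 to 104, 90, 98 and 94, a log2 fold change of 0.62 (SE 0.121 and limma adjusted p = 0.00187). Esrrb, an estrogen-related receptor, went from 171, 187, 165 and 164 to 246, 224, 269 and 247, a log2 fold change of 0.52 (SE 0.073 and limma adjusted p = 7.58e-05). Esrrg, its relative that drives oxidative metabolism genes, rose by less, with a log2 fold change of 0.23 (SE 0.052 and limma adjusted p = 0.00696). Irx4, a ventricular identity factor, and Meis2, a homeobox cofactor, passed narrowly (0.30 and 0.20, limma adjusted p = 0.0447 and 0.0485), and each call was lost when any of 7 of the 8 libraries was left out (limma adjusted p up to 0.171 and 0.188). Both calls also ended at equal library totals (limma adjusted p = 0.0547 and 0.0597) and equal upper quartiles (limma adjusted p = 0.0639 and 0.0719). Prdm16, a factor of compact ventricular myocardium, was called lower at -0.36 (limma adjusted p = 0.0169), although Mettl3 KO 1 at 286 lay among the WT values of 264 to 305. With the atrial marker level as a covariate only Esrrb of these 6 was called (0.49, limma adjusted p = 0.0088). Irx5 was 0.61, Irx4 0.41, Esrrg 0.24 and Meis2 0.20 there, close to or above their values without it (limma adjusted p = 0.0574, 0.0847, 0.0719 and 0.254), while Prdm16 stood at -0.03 (limma adjusted p = 0.923), and the part of the atrial markers was not tested further. Leaving out WT 2, WT 3 or any of Mettl3 KO 2, 3 and 4 also ended the Prdm16 call (limma adjusted p up to 0.0998). With the fibroblast marker level none of these 6 was called (limma adjusted p 0.504 to 0.941). Esrrg was then 0.09, Irx5 0.87, Irx4 0.36, Meis2 0.42, Esrrb 0.46 and Prdm16 -0.47.

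Of 24 cofactors of these factors, 2 rose and 1 fell, with a median of 0.02. Beside 4.72% and 3.19% of all genes tested, counts this small are near the background. Zfpm1 (FOG1), a multi-zinc-finger partner of GATA proteins, went from 107, 123, 115 and 105 to 156, 138, 161 and 153, a log2 fold change of 0.43 (SE 0.086 and limma adjusted p = 0.00224). Zfpm2 (FOG2), the main GATA4 partner in heart muscle, read 333 to 364 in WT and 340 to 377 in Mettl3 KO (log2 fold change 0.10, limma adjusted p = 0.371). Ep300, the histone acetyltransferase that GATA4 and MEF2 recruit, went from 676, 663, 657 and 697 to 754, 819, 782 and 754, a log2 fold change of 0.21 (SE 0.045 and limma adjusted p = 0.00518). Smarca4, the BRG1 ATPase of the BAF remodelling complex, fell by 0.18 on the log2 scale (SE 0.050 and limma adjusted p = 0.0257), a call that ended without any 1 of 6 libraries (limma adjusted p up to 0.102). With the atrial marker level as a covariate the calls of Ep300 (0.17, limma adjusted p = 0.165) and Smarca4 (-0.22, limma adjusted p = 0.0992) ended, and that of Zfpm1 did not (0.48, limma adjusted p = 0.0323). Myocd, the coactivator of SRF, read 606 ± 78.0 and 624 ± 37.6 (log2 fold change 0.05, limma adjusted p = 0.779).

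**Figure D5:**
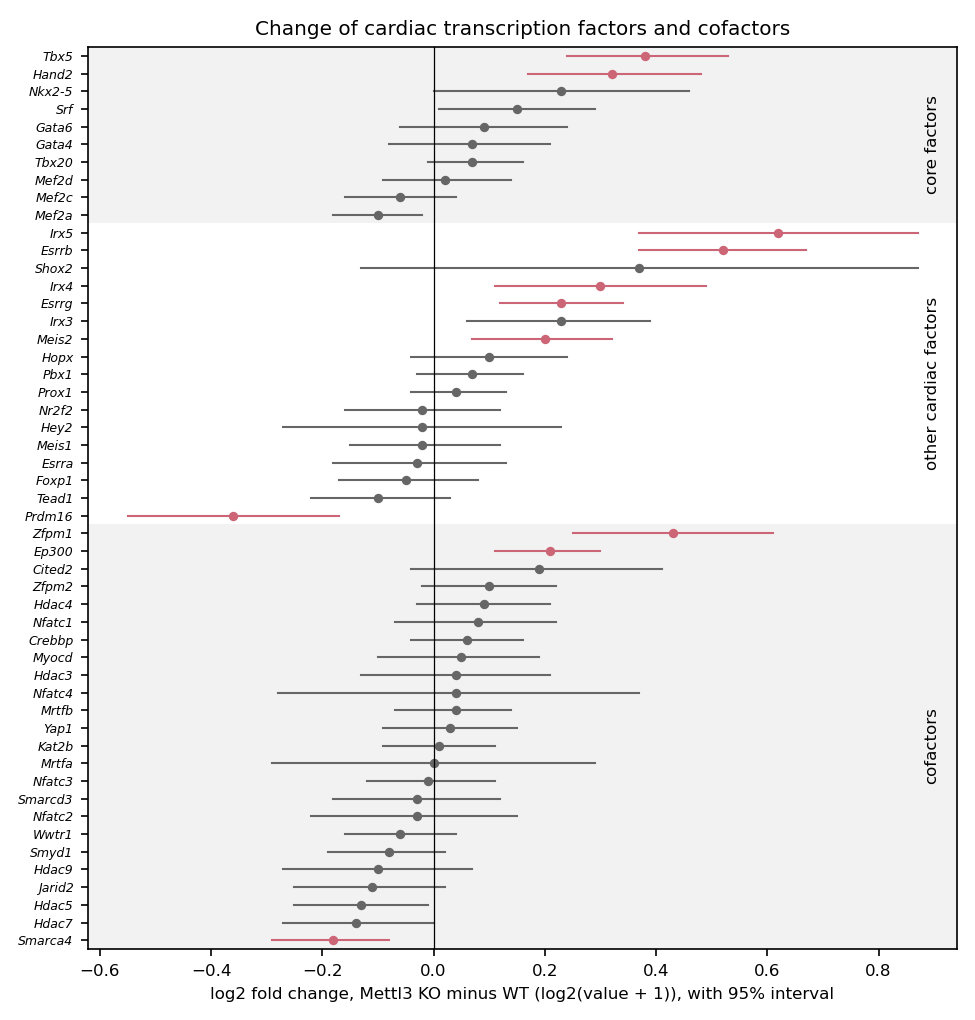
Log2 fold change of Mettl3 KO against WT on the log2(value + 1) scale (horizontal axis, points) with its 95% interval (lines) for the 10 core factors, 17 other cardiac factors and 24 cofactors, red where the limma adjusted p was under 0.05. Among the core factors Tbx5 and Hand2 are red at 0.38 and 0.32, and Irx5 and Esrrb lie furthest right of the called genes.

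Textbook targets of the core factors were read from the same fit. Among 20 targets of GATA, T-box and NKX2-5 factors, 6 rose and 2 fell, with a median log2 fold change of 0.07. Nppa, the atrial natriuretic peptide gene and a shared target of GATA4, TBX5, NKX2-5 and SRF, went from 282, 243, 175 and 292 to 452, 410, 508 and 481, a log2 fold change of 0.92 (SE 0.109 and limma adjusted p = 8.74e-06). With the atrial marker level as a covariate it was 0.62 (limma adjusted p = 0.00807), and with the fibroblast marker level 0.72 (limma adjusted p = 0.569). With both levels together, chosen after seeing the data, it was 0.30 (limma adjusted p = 0.884). The part of either cell type was not tested further. Nppb, its ventricular relative, and Ankrd1, a titin-binding stress protein, rose by 0.46 (limma adjusted p = 0.00211) and 0.50 (limma adjusted p = 2.58e-05). Chrm2, the muscarinic receptor of cardiomyocytes, rose by 0.28 (SE 0.042 and limma adjusted p = 1.47e-04). Myh7 and Adora1 were called higher with overlapping groups, at 0.85 and 0.39 (limma adjusted p = 0.0228 and 0.0478), and Ryr2 and Corin fell by 0.23 and 0.21 (limma adjusted p = 1.37e-04 and 0.0367). Leaving out single libraries ended the calls of Myh7 (WT 3, Mettl3 KO 3 or 4), Adora1 (6 of 8 libraries) and Corin (5 of 8), with limma adjusted p up to 0.152, 0.142 and 0.161. Without WT 3 Myh7 was 0.50, and at equal library totals the Adora1 call ended (limma adjusted p = 0.0605). The atrial marker level as a covariate ended 4 of the 8 calls: Myh7 was then 0.04, Adora1 0.12, Ryr2 -0.10 and Corin -0.03 (limma adjusted p = 0.968, 0.782, 0.0842 and 0.877). The part of the atrial markers in these 4 was not tested further. Gja5, the connexin 40 gene and a well-known TBX5 target, read 48.2 ± 5.91 in WT and 49.5 ± 5.07 in Mettl3 KO (log2 fold change 0.04, limma adjusted p = 0.927). Among 15 MEF2 targets 2 rose and none fell, with a median of 0.04. These were Xirp2, an actin-binding protein of the intercalated disc, at 0.31 (limma adjusted p = 2.80e-05), and Jph2, which ties T-tubules to the sarcoplasmic reticulum, at 0.17 (limma adjusted p = 0.0241). The Jph2 call ended when any of 5 of the 8 libraries was left out (limma adjusted p up to 0.106) and with the atrial marker level, where the fold stayed at 0.17 (limma adjusted p = 0.148). Among 17 SRF targets 3 rose and none fell, with a median of 0.17. Besides Nppa these were Ccn2, a matricellular protein made by fibroblasts too, at 0.81 (limma adjusted p = 4.82e-06), and Lmod2, a thin filament nucleator, at 0.20 (limma adjusted p = 0.0109, and 0.0523 without WT 1 or 0.0613 without Mettl3 KO 3). Ccn2 was 0.54 with the atrial marker level (limma adjusted p = 0.00521) and 0.53 with the fibroblast marker level (limma adjusted p = 0.629). With both levels, chosen after seeing the data, Ccn2 was 0.15 (limma adjusted p = 0.937). The part of either cell type in Ccn2 was not tested further. The immediate SRF target Egr1 read 91.0 ± 18.3 and 104 ± 4.35 (log2 fold change 0.21, limma adjusted p = 0.31), and skeletal actin Acta1 read 244 ± 47.1 and 296 ± 55.7 (log2 fold change 0.28, limma adjusted p = 0.199). The lists were drawn from textbook knowledge, several targets answer to more than 1 of the factors, and counts of 8, 2 and 3 called targets stand beside 7.91% of all genes.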

How the data were processed

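Total RNA of mouse hearts was sequenced in 8 stranded libraries (4 WT, 4 Mettl3 KO). Per the study's methods and the submitters' processing notes, reads were trimmed with Trimmomatic 0.39, aligned to mm39 with STAR 2.7.11a, and stripped of duplicates with Picard 3.1.1 and of multi-mapping, ribosomal and mitochondrial reads. Exon reads were assigned by strand with featureCounts 2.0.4, leaving out those over several genes, which lowers genes that share exons on 1 strand. The deposited values are a score: read counts normalized by the authors with DESeq2 1.36.0 and rounded to whole numbers. No count model was therefore used for the main fit, and voom was run on them only as an alternative. The planned fallback, limma 3.58.1 (R 4.3.3, prior variance following the mean, no term besides genotype), was fitted to log2(value + 1) of the 20313 genes with a mean of at least 1 (2732 were left out). Tests were two-sided, and p was adjusted by Benjamini-Hochberg over all genes tested. Fold changes on this scale understate those of low genes.

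Reads per library were estimated by maximum likelihood from the spacing of the values. In the least certain library, 11.6% of values could stand for 2 neighbouring read numbers. On 5 simulated libraries the largest error of the factor was 2.6e-13. Their factors lay exactly on the grid of values searched, so this error does not measure the accuracy for the real libraries. The limma fit was tested on simulated data for Mettl3 KO against WT: of 195 changed genes among 20225 fitted, each by 1 on the log2 scale, 64.1% were recovered, and 100% of the 83 with a mean of at least 50. With nothing changed it made 0 calls. Libraries of a genotype differed by more than sampling noise (chi-square per degree of freedom 1.11 to 1.86, between genotypes 2.16 to 3.00), so none was counted as a repeat. The labels do not say that the libraries came from separate animals. P-values therefore measure the spread between these libraries, which may be technical.

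Exon lengths came from GENCODE M21 (built on GRCm38, joined on Ensembl gene IDs, 96.2% of tested genes found) and cover all annotated exons, so levels per kb are low for genes with long unused exons. Ratios were tested by exact permutation over 70 assignments. The genes to name were all 10 factors, Mettl3 and Esr1, the called genes of each list with up to 3 others by lowest p or highest mean, and the tested neighbours. The factors, lists and alternatives were chosen with earlier results of these data known. Gja5, Egr1, Zfpm2, Tbx2, Myocd and Acta1 were named as well known members of their lists, after their values were seen. The values of 1 gene of the target lists are not reported here.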

Additional observations from a re-analysis of the deposited data

Results flagged for a closer look

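For 43 genes (the 10 factors, their neighbours with a mean of at least 20 in either group, Mettl3, Esr1 and the called genes of the factor, cofactor and target lists), a single library standing apart from the other 3 of its group was looked for by Dixon's gap test. Of 86 groups, 4 were marked, where chance gives about 4.3. Mef2d read 565 in Mettl3 KO 4 against 639 to 645 in the other Mettl3 KO libraries, a gap of 0.925 of the group's range. Gm44668, inside the span of Mef2a, read 44 in the same library against 55 to 56 in the others (0.917). Gata5 read 3 in WT 4 against 1 in each other WT library, a difference of 2 reads. Ryr2 read 10427 in WT 3 against 9666 to 9731 in the other WT libraries (0.915). Mettl3 KO 4 had the highest atrial marker sum, 1389, and WT 3 the lowest, 127; their part in these values was not tested.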

How the results depend on the processing

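Without the mean-variance trend 321 genes were called (211 higher, 110 lower), with the atrial marker level as a covariate 964 (617, 347), with the fibroblast marker level 15 (6, 9) and with both, chosen after seeing the data, 21 (12, 9). Much of the variance of these levels lies between the genotypes (58.5% for the atrial and 86.1% for the fibroblast level). A call lost with either level therefore does not by itself assign the change to those cells. Leaving out single libraries gave 1019 to 1596 calls (613 to 913 higher, 406 to 683 lower), the lowest without Mettl3 KO 3. Of the 10 factors, 0 were called without trend, 1 (Hand2) with the atrial level and 0 with the fibroblast level or both, and 2 to 3 without single libraries.

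Tbx5 was 0.38 (adjusted p 0.0903) without trend, 0.34 (0.0676) with the atrial level, 0.12 (0.941) with the fibroblast level and 0.04 (0.983) with both. Hand2 was 0.32 (0.0903) without trend, 0.46 (0.599) with the fibroblast level and 0.62 (0.443) with both. Leaving out single libraries they ranged from 0.32 to 0.43 and from 0.28 to 0.36 and stayed called. Mef2a passed at equal totals (-0.11, 0.0495), equal upper quartiles (-0.12, 0.0318), by voom on the deposited values (-0.11, 0.0244) and without Mettl3 KO 1 (-0.13, 0.0414; -0.13 to -0.08 without single libraries). With the atrial level Mef2a was -0.01 (0.973). The cause was not tested.

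With the fibroblast level Mef2d was -0.01, Gata4 -0.04, Gata6 -0.05, Hdnr -0.20, Gata6os 0.01 and Ptk7 -1.15. With both levels Tbx20 was -0.03, Gata6 -0.21, Hdnr -0.07, Ptk7 -0.57 and Myh7 -0.69. With the atrial level Gata6 was -0.02, Tbx20 0.00, Gata4 0.18 and Mef2d 0.15 (limma adjusted p 0.293 to 0.994). Mettl3 KO 1 alone against WT (added after seeing the data, no test) gave Tbx20 0.02, Gata6 -0.06, Mef2c 0.03 and Mef2a -0.02. Without single libraries Mef2d ranged from -0.00 to 0.07, Gm43050 from -0.13 to 0.17, Gata6os from -0.09 to 0.07, the Gata4 to Gata6 log2 ratio from -0.14 to 0.06 and that of Mef2c to its relatives from -0.06 to 0.03.

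Called relatives were 0 with a pseudocount of 0.5, a mean filter of 10, no trend, voom on the deposited values, or any marker covariate, and 0 to 2 without single libraries. Called other cardiac factors were 1 without trend, 1 with the atrial level, 0 with the fibroblast level or both, and 3 to 5 without single libraries. Called targets of GATA, T-box and NKX2-5 factors were 0, 5, 0 and 0 in that order, and 5 to 8. Called cofactors, MEF2 targets and SRF targets were 0, 0 and 1 without trend, 0 each with the fibroblast level or both, and 2 to 3, 1 to 3 and 2 to 5 without single libraries.

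The replicate numbers were not taken as pairs: same-numbered libraries correlated at -0.041 to 0.088 over 12027 genes. A replicate block left 1346 calls, 1304 of them shared, with Tbx5 at 0.38 (adjusted p 0.00389) and Hand2 at 0.32 (0.0239). It ended the calls of Gata5 (0.0579), Irx4 (0.0666), Meis2 (0.0643), Myh7 (0.0722) and Adora1 (0.0741). The Gm44667 and Lysmd4 calls were lost without trend (-0.27 and 0.47, adjusted p 0.139 and 0.154), with the fibroblast level (-0.41 and 0.42, 0.629 and 0.823) and with both levels (-0.35 and 0.68, 0.782 and 0.714), so the folds stayed of similar size or larger.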
